A study of Mus musculus with 14 samples.

Results

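The 73 genes described here encode subunits of the mitochondrial respiratory chain and of ATP synthase in transplanted mouse hearts. They were every gene with a symbol that begins with Nduf, Uqcr, Cox4 to Cox8 or Atp5, or that is Sdha, Sdhb, Sdhc, Sdhd, Cyc1 or Cycs. Only a probe set that the annotation of the MG-U74Av2 array assigns to 1 gene was used. These genes were 73 of the 8251 genes named on the array and had 101 probe sets, of which the brightest over all arrays stood for each gene. By complex they were 29 of complex I with 2 of its assembly factors, 4 of complex II, 8 of complex III, cytochrome c, 15 of complex IV and 14 of complex V, the ATP synthase.

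The respiratory chain sits in the inner mitochondrial membrane. Complexes I and II feed electrons to ubiquinone, complex III passes them to cytochrome c, and complex IV passes them to oxygen, while complexes I, III and IV pump protons that drive ATP synthase. Heart muscle makes nearly all of its ATP this way, and its mitochondria fill a large share of each cardiomyocyte. A number of the central subunits are encoded by mitochondrial DNA and do not fall under these symbols. All 73 genes here are nuclear genes, and striated muscle carries its own isoforms of a few complex IV subunits.

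Each of the 14 arrays measured 1 transplanted heart. Isografts went from C57/BL6 donors to C57/BL6 recipients and were taken at day 7 (n = 3) and day 70 (n = 2). Rejecting allografts went from Balb/c donors to C57/BL6 recipients and were taken at day 7 (n = 3). Tolerizing allografts had the same strains with antibody treatment against CD80 and CD86, the ligands on antigen-presenting cells that costimulate T cells. Tolerizing hearts were taken at day 7 (n = 3) and day 70 (n = 3). All recipients were C57/BL6, and every allograft came from a Balb/c donor, so that donor strain and alloreaction cannot be told apart in a comparison with isografts. The labels give no sex or age of the mice, no control antibody and no untransplanted heart, and do not say whether hearts of a group came from separate operations. P-values therefore measure the spread between these hearts.

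The deposited signal intensities had nearly the same trimmed mean on all arrays, 100.058 to 100.071, and the share of probe sets above the floor of 11 used below was 71.9% to 78.7%. All 16 cardiomyocyte markers measured, such as the contractile genes Myh6 and Tnni3, lay above the floor on 13 of the 14 arrays, and 14 of them did on rejecting array 1, where Tcap and Actn2 were under it. The arrays carry consecutive accessions in 2 runs, the first with replicate 3 of each group (replicate 2 of the day 70 isografts) and the second with the other 9 arrays. Array 3 of the rejecting allografts, the only one of its group in the first run, stood apart from arrays 1 and 2. It was the highest of the group for 60 of the 72 testable genes (83.3%), against 31.5% of all probe sets. Its cardiomyocyte markers summed to 31661 signal units, against 8049 and 11653 on the others. For rejecting hearts against isografts, the counts and medians of the complexes and gene lists are therefore also given without it. So is each gene of the 72 whose difference it moves by over 1.5-fold. Such fits set rejecting hearts of the second run against isografts of both runs, so that array 3 and run cannot be told apart.

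In complex IV, striated muscle isoforms can be set beside broadly expressed counterparts of the same subunit. The sequences upstream of 5 such genes are shown for that reason. Cox7a1 and Cox8b are muscle isoforms and had the lowest differences of the 72 genes tested in rejecting hearts against isografts, and Cox7a2 and Cox8a are their counterparts. Cox6a1 is the counterpart of the muscle isoform Cox6a2 and was bright but did not fall. Its 1 probe set, 99631_f_at, has a suffix that marks probes shared by similar sequences, so that signal from related genes can enter it. The 250 bases before the transcription start are from RefSeq, build GRCm38.p6, and capitals mark the letters CCGGAAG (an ETS motif, bound by GABPA), GCGCATGC (NRF1), AAGGTCA (ERR) or AAGATGGC (YY1) on either strand.
Cox7a1, chr7:30183921-30184170, plus strand: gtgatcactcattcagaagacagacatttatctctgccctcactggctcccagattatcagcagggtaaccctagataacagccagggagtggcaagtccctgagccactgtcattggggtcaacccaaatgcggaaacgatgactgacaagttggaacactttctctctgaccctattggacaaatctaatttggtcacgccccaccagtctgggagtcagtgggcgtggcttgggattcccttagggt
Cox7a2, chr9:79759854-79760103, minus strand: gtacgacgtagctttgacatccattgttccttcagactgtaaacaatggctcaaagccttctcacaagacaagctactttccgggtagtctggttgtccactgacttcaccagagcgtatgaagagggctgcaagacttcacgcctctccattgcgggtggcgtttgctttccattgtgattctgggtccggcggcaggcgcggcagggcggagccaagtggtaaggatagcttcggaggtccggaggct
Cox8b, chr7:140900447-140900696, minus strand: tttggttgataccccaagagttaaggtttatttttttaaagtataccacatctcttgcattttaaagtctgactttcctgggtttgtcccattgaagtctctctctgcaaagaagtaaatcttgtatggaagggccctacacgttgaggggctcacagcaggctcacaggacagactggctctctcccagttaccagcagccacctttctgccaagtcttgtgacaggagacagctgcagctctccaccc
Cox8a, chr19:7217617-7217866, minus strand: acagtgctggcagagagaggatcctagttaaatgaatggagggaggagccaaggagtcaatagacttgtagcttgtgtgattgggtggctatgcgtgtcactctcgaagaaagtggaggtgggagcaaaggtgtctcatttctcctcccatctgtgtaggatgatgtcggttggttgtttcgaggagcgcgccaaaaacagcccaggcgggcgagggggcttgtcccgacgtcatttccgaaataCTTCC
Cox6a1, chr5:115348959-115349208, minus strand: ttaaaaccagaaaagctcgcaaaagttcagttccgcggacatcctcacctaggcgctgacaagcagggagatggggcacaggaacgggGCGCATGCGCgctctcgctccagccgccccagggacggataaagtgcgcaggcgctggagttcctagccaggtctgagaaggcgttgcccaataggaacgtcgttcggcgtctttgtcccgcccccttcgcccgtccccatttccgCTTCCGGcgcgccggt
The windows of Cox7a1, Cox7a2 and Cox8b held none of these letter strings. That of Cox6a1 held the ETS motif and NRF1 matches that overlap, and that of Cox8a ended in the first letters of an ETS motif that runs over the start site. Cox6a2 was not matched in the promoter table.

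Promoters in RefSeq were matched for 59 of the 73 genes and were searched from 250 bases before to 50 after each start on both strands. ETS letters were present in 16 of 59 (27.1%), against 12.9% of 17492 protein-coding genes. NRF1 letters were present in 11 (18.6%), against 3.94%. YY1 letters were present in 8 (13.6%), against 3.57%, and ERR letters in 5 (8.47%), against 4.73%. These factors are known regulators of nuclear genes for mitochondrial proteins. The ETS share was 26.2% in the 42 matched genes that were lower in rejecting hearts and 29.4% in the other 17. For NRF1 the same shares were 16.7% and 23.5%, for YY1 11.9% and 17.6%, and for ERR 9.52% and 5.88%. The shares are descriptions of the letters in these windows.

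In rejecting allografts at day 7, transcripts for all 5 complexes were lower than in isografts of the same day. Of the 72 genes tested, 54 fell and 0 rose (adjusted p under 0.05, limma, all probe sets tested). Among all 10395 probe sets tested, 9.18% were called lower, 8.54% higher and 17.7% in either direction. The count was 29, against 5.35% of all probe sets called lower, when only these 2 groups entered the fit, and 28 genes kept the call under every alternative run. Cox8a, the remaining gene, exceeded the floor on 1 array only and was not tested. The median log2 difference of the 72 genes was -1.37, while that of all probe sets was 0.04. The signals came from whole hearts. A smaller share of cardiomyocyte RNA in the heart and fewer of these transcripts per cardiomyocyte therefore cannot be told apart.

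Complex I had 24 of 29 genes lower, with a median difference of -1.49. Complex II had 4 of 4 lower, with a median of -1.61, and complex III 8 of 8, with a median of -1.45. Complex V had 10 of 14 lower, with a median of -1.18. Complex IV had the smallest share among the complexes, 8 of 14, with a median of -0.94. Neither assembly factor of complex I nor cytochrome c was called. Without rejecting array 3, complex I had 24 lower and 1 higher with a median of -1.76, complex II 4 lower (-2.08), complex III 8 (-1.77), complex IV 9 lower and 1 higher (-1.25) and complex V 11 lower (-1.49). Cytochrome c and the assembly factor Ndufaf4 (-0.998) were then called lower too. So were Cox6c (-1.09), Atp5k (-1.76) and Ndufs4 (-0.84), while Ndufb7 (-0.76) was no longer called.

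**Figure D1:**
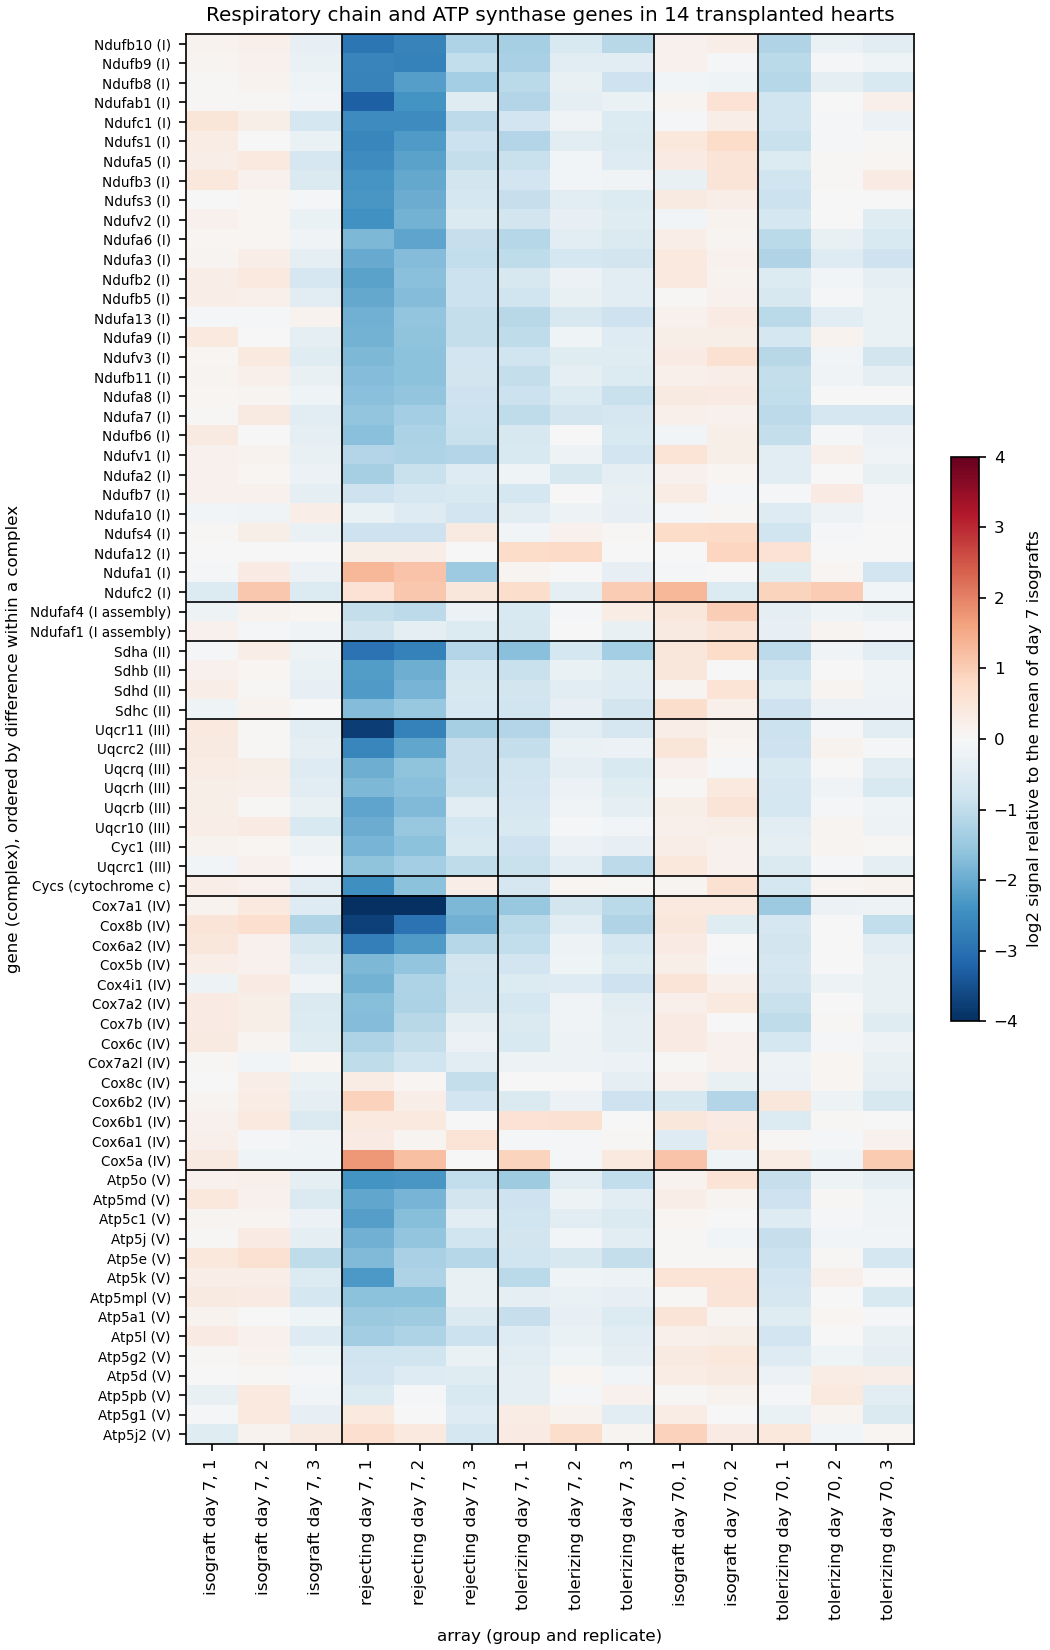
Each row is 1 of the 72 tested genes with its complex, each column 1 array, and colour gives log2 signal relative to the mean of the day 7 isografts. Rejecting arrays 1 and 2 are the deepest blue, rejecting array 3 is paler, and the few pale or red rows in the rejecting columns lie at the bottom of complexes I, IV and V.

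Rejecting hearts did not overlap isografts for 55 of the 72 genes (76.4%), with all 3 arrays lower, against 15.4% of all probe sets. Averaged over the 72 genes, the rejecting arrays stood at 32.8%, 38.8% and 61.2% of the day 7 isograft mean. The isograft arrays themselves ranged from 79.6% to 113.9%, with array 3 lowest. Without rejecting array 3, 58 genes were lower and 2 higher, Cox5a and Ndufa1, and the median difference was -1.71. Of all probe sets, 10.5% were called lower and 10.3% higher in that fit. Rejecting hearts in it were all of the second run, and isografts of both runs. Leaving out any other array of these groups left 43 to 54 genes called, all lower, against 6.5% to 7.41% of all probe sets called lower.

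The runs gave medians of different size. In the second run, with 2 arrays a group, the median difference was -1.92 and 62 of 72 genes were negative. Over all arrays 64 genes were negative, against 46.8% of all probe sets. In the first run, with 1 array a group and no test, the median was -0.40 and 61 of 72 genes were negative. With the run as a block, 53 genes were called lower, against 10.3% of all probe sets.

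Complex I takes electrons from NADH. Its lowest genes were Ndufb10 and Ndufb9, accessory subunits of the membrane arm. Ndufb10 (probe set 101525_at) had signals of 1761, 1848 and 1283 in day 7 isografts, 215, 251 and 681 in rejecting allografts and 641, 1051 and 749 in day 7 tolerizing allografts. The rejecting arrays did not overlap the isografts, and the fall was 4.84-fold (log2 difference -2.27, SE 0.38, adjusted p = 0.00138). At day 70 its signals were 1805 and 1949.6 in isografts and 702, 1341 and 1167 in tolerizing allografts, and the lowest was tolerizing array 1.

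Ndufb9 had signals of 1802, 1884 and 1388 in day 7 isografts, 269, 257 and 851 in rejecting allografts and 686, 1220.2 and 1248 in day 7 tolerizing allografts. Rejecting arrays 1 and 2 were close together, and array 3 lay above array 1 of the tolerizing hearts (log2 difference -2.11, SE 0.42, adjusted p = 0.00378). At day 70 the signals were 1907 and 1634 in isografts and 788, 1611 and 1475 in tolerizing allografts. Ndufb8, another membrane arm subunit, had the smallest adjusted p of the 72 genes (log2 difference -2.07, SE 0.31, adjusted p = 0.000810). Ndufab1, the mitochondrial acyl carrier protein, had signals of 1296, 1314 and 1179 in day 7 isografts and 132, 243 and 907 in rejecting allografts. Its difference of -2.04 (SE 0.52, adjusted p = 0.0156) was -2.82 without rejecting array 3 and -1.43, past the threshold no longer, without rejecting array 1. All 4 core subunits measured were lower. Ndufs1, the large iron-sulfur subunit, differed by -1.91, Ndufs3 by -1.66, Ndufv2 by -1.63 and Ndufv1, which binds NADH and flavin mononucleotide, by -1.19.

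The 5 complex I genes not called were Ndufa1, Ndufa10, Ndufa12, Ndufc2 and Ndufs4, with mean signals of 10.6 to 137 over the 14 arrays. Ndufc2, the highest of them, had signals of 5.80, 34.0 and 4.30 in day 7 isografts, 24.1, 34.0 and 21.7 in rejecting allografts and 26.3, 12.1 and 32.5 in day 7 tolerizing allografts, and 40.0 and 8.80 in isografts and 29.8, 32.6 and 15.0 in tolerizing allografts at day 70. The groups overlapped, and several values lay at or under the floor (log2 difference 0.70, SE 0.56, adjusted p = 0.459). Ndufa1 was split within the rejecting group, with 97.4, 84.4 and 14.1, against 36.8, 48.1 and 32.5 in isografts. Arrays 1 and 2 were above all isografts and array 3 below all of them (log2 difference 0.34, SE 0.56, adjusted p = 0.757). It was called higher without rejecting array 3 (log2 difference 1.23).

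The assembly factors Ndufaf1 and Ndufaf4 act on complex I but are not part of it. Ndufaf4 had signals of 53.5, 67.5 and 65.0 in day 7 isografts, 31.9, 29.9 and 52.2 in rejecting allografts and 40.0, 59.7 and 75.6 in day 7 tolerizing allografts. Ndufaf1 had signals of 131, 113 and 106 in day 7 isografts, 70.4, 91.1 and 79.8 in rejecting allografts and 74.7, 116 and 94.5 in day 7 tolerizing allografts. For both, all rejecting arrays were below all isografts, but neither passed the test (-0.75, SE 0.30, adjusted p = 0.107, and -0.54, SE 0.21, adjusted p = 0.0914). At day 70 Ndufaf4 stood at 84.7 and 122 in isografts and 47.5, 55.3 and 51.8 in tolerizing allografts, and Ndufaf1 at 149.6 and 168 in isografts and 93.7, 125 and 109.5 in tolerizing allografts.

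Complex II, succinate dehydrogenase, is also an enzyme of the citric acid cycle. Sdha, its flavoprotein, had signals of 295, 375 and 273 in day 7 isografts, 40.1, 48.3 and 137 in rejecting allografts and 96.7, 190.3 and 122 in day 7 tolerizing allografts. Both allograft groups lay below all isografts, and the rejecting arrays fell 4.85-fold (log2 difference -2.28, SE 0.40, adjusted p = 0.00193). At day 70 Sdha signals were 427 and 515 in isografts and 149.5, 285 and 233 in tolerizing allografts, again without overlap. Sdhb, the iron-sulfur subunit, had signals of 2087, 1948 and 1547 in day 7 isografts, 394, 472 and 1123 in rejecting allografts and 991, 1547 and 1333 in day 7 tolerizing allografts. The rejecting arrays were below all isografts (log2 difference -1.64, SE 0.35, adjusted p = 0.00579), and at day 70 the signals were 2514 and 1839 in isografts and 1052, 1829 and 1687 in tolerizing allografts. The membrane anchors Sdhc and Sdhd differed by -1.31 and -1.59. Sdhc had the smallest difference of the complex, with 1189, 1469 and 1352 in day 7 isografts, 397, 471 and 828 in rejecting allografts and 762, 1053 and 807 in day 7 tolerizing allografts, and 2145 and 1549 in isografts and 754, 1124 and 1142 in tolerizing allografts at day 70.

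Complex III carries electrons from ubiquinol to cytochrome c. Uqcr11, a small accessory subunit, had the lowest difference, with signals of 2985, 2385 and 1708 in day 7 isografts, 169, 351 and 919 in rejecting allografts and 1011, 1681 and 1444 in day 7 tolerizing allografts. The rejecting arrays spread over a wide range below all isografts, and the fall was 6.07-fold (log2 difference -2.60, SE 0.46, adjusted p = 0.00208). The difference was -3.24 without rejecting array 3. At day 70 its signals were 2755 and 2562 in isografts and 1265, 2214 and 1713 in tolerizing allografts. The core proteins Uqcrc1 and Uqcrc2 flank the matrix side of the complex. Uqcrc2 had 1420.3, 1152 and 848 in day 7 isografts, 183, 263 and 591 in rejecting allografts and 579.7, 936 and 957 in day 7 tolerizing allografts (log2 difference -1.87, SE 0.39, adjusted p = 0.00479). Uqcrc1 differed least in the complex, but with the least spread, with 1229.5, 1506 and 1293 in day 7 isografts, 443, 523 and 664 in rejecting allografts and 715, 982 and 644 in day 7 tolerizing allografts (log2 difference -1.32, SE 0.21, adjusted p = 0.00123). At day 70 Uqcrc2 stood at 1575 and 1180.3 in isografts and 625, 1218 and 1051 in tolerizing allografts and Uqcrc1 at 1783 and 1523 in isografts and 888, 1264 and 1015 in tolerizing allografts. Cyc1, cytochrome c1, fell by 1.37 on the log2 scale, and the accessory subunits Uqcrb, Uqcrh, Uqcrq and Uqcr10 fell by 1.41 to 1.49.

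Cytochrome c, the mobile carrier encoded by Cycs, had signals of 321, 295 and 194 in day 7 isografts, 48.7, 85.1 and 317 in rejecting allografts and 165, 281 and 273 in day 7 tolerizing allografts. Rejecting arrays 1 and 2 were the lowest of the 14, while array 3 lay among the isografts (log2 difference -1.27, SE 0.52, adjusted p = 0.116). Without array 3 the difference was -2.04 and passed the test (adjusted p = 0.00154). At day 70 the signals were 282 and 403 in isografts and 163, 283 and 288 in tolerizing allografts.

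**Figure D2:**
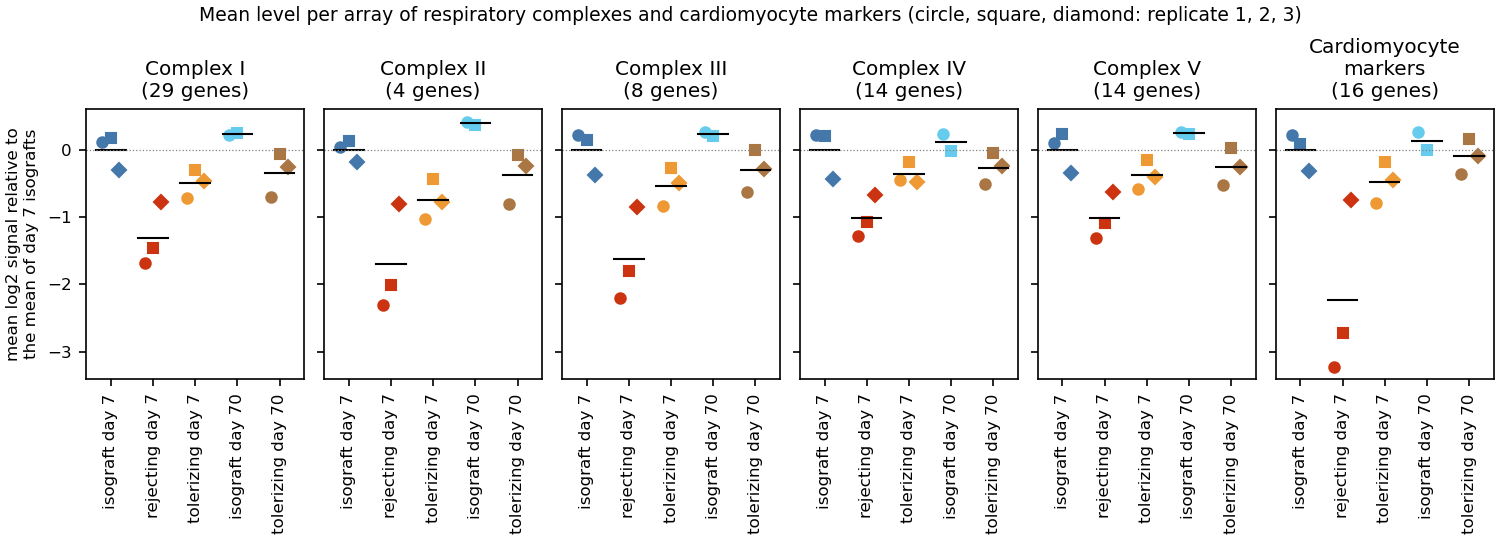
Each point is 1 array, the mean log2 signal over the tested genes of a complex relative to the day 7 isograft mean, with cardiomyocyte markers at right, and lines are group means. Rejecting arrays 1 and 2 lie lowest in every panel, with rejecting array 3 (diamond) at -0.62 to -0.85 in the complexes and at -0.75 in the cardiomyocyte markers.

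Complex IV, cytochrome c oxidase, held the lowest differences and also most of the bright genes that were not called. Cox7a1, the muscle isoform of subunit 7a (probe set 102749_at), had signals of 979, 1179 and 626 in day 7 isografts, 16.1, 28.3 and 256 in rejecting allografts and 311, 538 and 423 in day 7 tolerizing allografts. Rejecting arrays 1 and 2 were near the floor and array 3 was far above them, yet below every other array. The fall was 18.4-fold (log2 difference -4.20, SE 0.74, adjusted p = 0.00186), and the log2 difference was -5.39 without rejecting array 3 and -3.40 without rejecting array 1. At day 70 Cox7a1 stood at 1178 and 1164 in isografts and 329, 755 and 774 in tolerizing allografts.

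Cox8b, the muscle isoform of subunit 8, had signals of 2728, 3073 and 834 in day 7 isografts, 143, 247 and 502 in rejecting allografts and 901, 1400.3 and 838 in day 7 tolerizing allografts. Isograft array 3 overlapped the tolerizing hearts, and all rejecting arrays were lower still. The fall was 7.34-fold (log2 difference -2.88, SE 0.52, adjusted p = 0.00220), and the log2 difference was -3.35 without rejecting array 3 and -3.47 without isograft array 3. At day 70 its signals were 2615 and 1378 in isografts and 1188, 1913 and 961 in tolerizing allografts. Cox6a2, the muscle isoform of subunit 6a and the gene with the highest mean signal of the 73, had 7901, 6456 and 3704 in day 7 isografts, 858, 1196 and 2592 in rejecting allografts and 2907, 4942 and 3553 in day 7 tolerizing allografts. All rejecting arrays were below all isografts (log2 difference -2.05, SE 0.41, adjusted p = 0.00392), and at day 70 the signals were 7137 and 5826 in isografts and 3425, 5860.1 and 4216 in tolerizing allografts.

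The counterpart Cox6a1, read from 99631_f_at alone, did not fall. It had 1141, 944 and 885 in day 7 isografts, 1232, 1054 and 1439.5 in rejecting allografts and 947, 950.2 and 1028 in day 7 tolerizing allografts. Rejecting arrays overlapped isografts and 2 of 3 were above all of them (log2 difference 0.32, SE 0.22, adjusted p = 0.373). At day 70 Cox6a1 stood at 689 and 1283 in isografts and 1019, 929.5 and 1117 in tolerizing allografts. Cox7a2, the counterpart of Cox7a1, did fall, with 3551, 3317 and 1903 in day 7 isografts, 867, 1181 and 1697 in rejecting allografts and 1716, 2584 and 2071 in day 7 tolerizing allografts. Its difference was -1.23 (SE 0.32, adjusted p = 0.0173). It was -1.06 and -1.11 without isograft array 1 or 2, -0.99 and -1.22 without rejecting array 1 or 2, and missed the threshold in each case. At day 70 Cox7a2 stood at 3252 and 3669 in isografts and 1531, 2869.8 and 2305 in tolerizing allografts. Cox8a ranged from 2.3 to 11.2 over the 14 arrays and gave no level to compare with Cox8b.

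**Figure D3:**
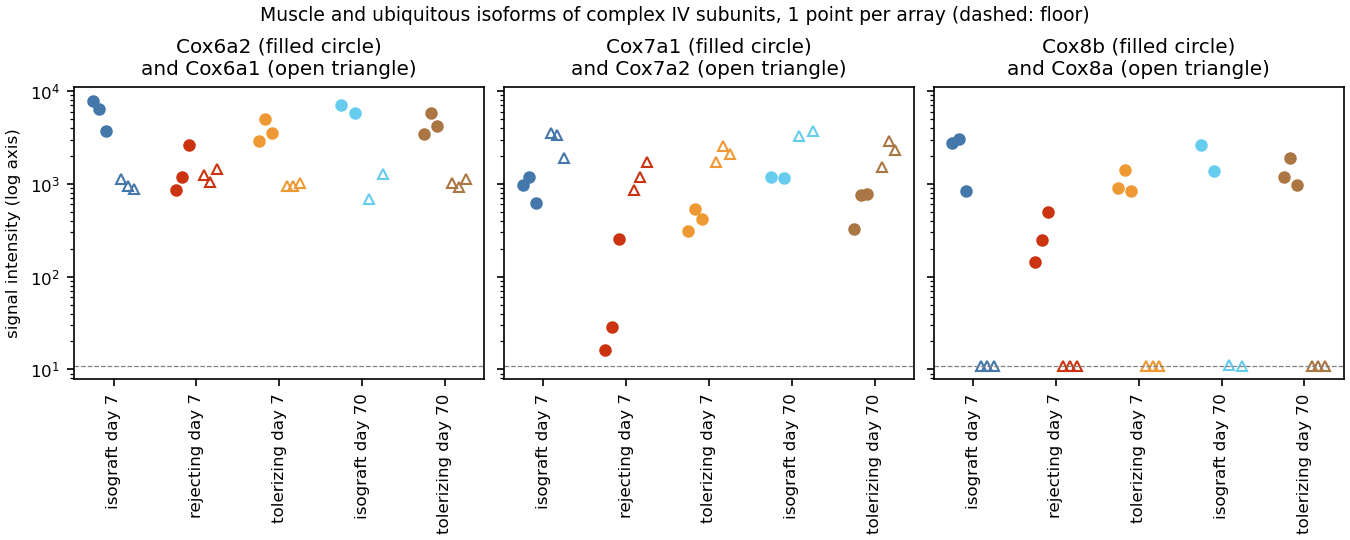
Signal intensity (log axis) of muscle isoforms (filled circles) and broadly expressed counterparts (open triangles), 1 point per array, with values under the floor drawn at the dashed line. Cox7a1 drops to 16.1 and 28.3 in rejecting arrays 1 and 2, while Cox6a1 stays between 885 and 1439.5 in all day 7 arrays and Cox8a lies at the floor.

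The log2 ratio of muscle isoform to counterpart was compared between the 6 allografts and 3 isografts of day 7 with an exact two-sided permutation test, adjusted over 3 pairs. For Cox6a2 over Cox6a1, the ratio was 2.79, 2.77 and 2.06 in isografts, -0.52, 0.18 and 0.85 in rejecting hearts and 1.62, 2.38 and 1.79 in tolerizing hearts. Only tolerizing array 2 overlapped the isografts, and the mean difference was -1.49 (exact p = 0.0476, adjusted p = 0.0714). The ratio of Cox7a1 over Cox7a2 was -1.86, -1.49 and -1.60 in isografts, -5.75, -5.38 and -2.73 in rejecting hearts and -2.47, -2.26 and -2.29 in tolerizing hearts. All 6 allografts were below all isografts, with a mean difference of -1.83 (exact p = 0.0238, the smallest this design can give, adjusted p = 0.0714). For Cox8b over Cox8a the mean difference was -1.89 (exact p = 0.0952, adjusted p = 0.0952), which reflects Cox8b alone since Cox8a was at the floor.

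None of the 3 pairs passed the threshold after adjustment. Against isografts, the rejecting hearts differed by -2.37, -2.97 and -2.88 for the pairs in this order (-2.71, -3.92 and -3.35 without rejecting array 3), and the tolerizing hearts by -0.62, -0.69 and -0.91. With 3 arrays a group an exact test cannot go below p = 0.10, and the groups were not tested apart. At day 70 the differences between tolerizing hearts and isografts were -0.67, -0.35 and -0.54.

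Other complex IV genes that fell were Cox4i1, Cox5b, Cox7a2l and Cox7b. Cox7a2l, which helps join complex IV to complex III, differed by -0.75, and Cox5b, which binds zinc, by -1.37. Cox6c was bright but was not called, with 3520.4, 2994 and 1978 in isografts and 1163, 1436 and 2315 in rejecting hearts (log2 difference -0.81, SE 0.30, adjusted p = 0.0786). Without rejecting array 3 it was called lower (log2 difference -1.09, adjusted p = 0.0156). Cox5a had the highest difference of the 72 genes, with 15.8, 5.50 and 9.90 in day 7 isografts, 41.5, 28.7 and 12.4 in rejecting allografts and 23.2, 11.9 and 16.1 in day 7 tolerizing allografts. These signals were near the floor and the groups overlapped (log2 difference 0.98, SE 0.47, adjusted p = 0.182), and at day 70 the signals were 27.2 and 9.60 in isografts and 15.3, 5.60 and 25.4 in tolerizing allografts. Cox5a was called higher without rejecting array 3. Cox6b1 (difference 0.25), Cox6b2 (0.14) and Cox8c (-0.19) were not called. Cox6b2 and Cox8c are isoforms known from testis.

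Complex V makes ATP from the proton gradient through its F1 head, membrane part and connecting stalks. Atp5o, the stalk subunit that confers oligomycin sensitivity, had the lowest difference, with 2379.8, 2415 and 1629 in day 7 isografts, 403, 420.3 and 1063 in rejecting allografts and 792, 1527 and 1071 in day 7 tolerizing allografts. Rejecting arrays fell 3.73-fold and lay below all isografts (log2 difference -1.90, SE 0.37, adjusted p = 0.00320). At day 70 the signals were 2321 and 3060.3 in isografts and 1104, 1850.1 and 1625 in tolerizing allografts. The F1 subunits Atp5a1, Atp5c1, Atp5d and Atp5e all fell, by 1.17, 1.45, 0.60 and 1.39 on the log2 scale.

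Atp5md, a small membrane subunit, had 4681, 3931 and 2338 in day 7 isografts, 832, 968 and 2129 in rejecting allografts and 1985, 3057 and 2599.5 in day 7 tolerizing allografts (log2 difference -1.55, SE 0.37, adjusted p = 0.0111). Its difference was -1.34 without isograft array 1, -1.29 without rejecting array 1 and -1.40 without rejecting array 2, and each of these missed the threshold. At day 70 Atp5md stood at 4178 and 3799 in isografts and 1961, 3641 and 3080.2 in tolerizing allografts. The 4 genes not called were all stalk, ring or membrane subunits: Atp5g1 and Atp5j2 differed by -0.05 and 0.11, Atp5pb by -0.40 and Atp5k by -1.27. Atp5j2, the highest, had 12.8, 19.8 and 22.8 in day 7 isografts, 28.3, 23.4 and 9.70 in rejecting allografts and 22.3, 29.5 and 19.3 in day 7 tolerizing allografts, and 34.3 and 22.6 in isografts and 24.1, 16.6 and 19.0 in tolerizing allografts at day 70, all near the floor. Atp5g2 encodes the same ring subunit c as Atp5g1 and differed by -0.61 (SE 0.18, adjusted p = 0.0277).

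The genes not called were mostly dim. The 18 had mean signals of 10.6 to 2362, with a median of 68.0, while the 54 that fell had 128 to 4327, with a median of 1263. The bright exceptions were Cox6c, Cox6a1 and Cox8c, all of complex IV, with mean signals of 2362, 1047 and 401. Of these, only Cox6c was called lower without rejecting array 3. The other probe set of Cox8c, 161475_f_at, had a mean signal of 3.29 and exceeded the floor on 0 arrays.

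**Figure D4:**
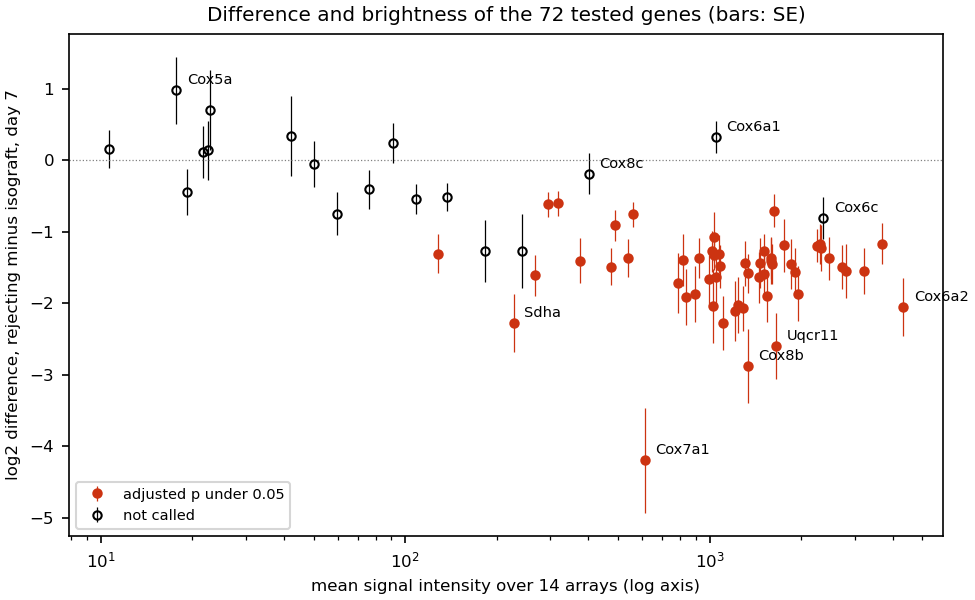
Each point is 1 of the 72 genes: mean signal over 14 arrays (log axis) against the log2 difference between rejecting hearts and isografts at day 7, with SE bars, filled where adjusted p was under 0.05. Called genes lie at 128 signal units and above, and most open points lie under 250, apart from Cox8c, Cox6a1 and Cox6c.

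Genes with several probe sets gave a further reading. Of 16 genes with at least 2 tested probe sets, the sign of the difference was not the same throughout for 7: Atp5d, Atp5g2, Atp5l, Cox4i1, Cox6c, Cyc1 and Ndufb7. For Cyc1 the brightest probe set had 3229, 3117 and 2529 in isografts and 809.6, 947 and 1935 in rejecting hearts (log2 difference -1.37, SE 0.30, adjusted p = 0.00675), while another bright one, 162469_r_at with a mean signal of 927, differed by 0.27. In the other 6 genes the probe set of opposite sign had a mean signal of at most 47.4. Atp5d was the only gene with calls in both directions. Its brightest probe set had 334, 335 and 315 in isografts and 191, 227 and 233 in rejecting hearts (-0.60), and 161047_at, with a mean signal of 15.7, differed by 1.16 (adjusted p = 0.0447).

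For the rest of these genes the brightest probe set gave the following. Ndufb7 had 2000.2, 2031 and 1406 in isografts and 1000.1, 1118 and 1183 in rejecting hearts (log2 difference -0.70, SE 0.23, adjusted p = 0.0497). Cox4i1 had 141, 202 and 147 and 43.3, 68.8 and 92.9 (log2 difference -1.30, SE 0.27, adjusted p = 0.00473). The groups did not overlap in either gene. Atp5g2 had 344, 368 and 297 and 194, 193 and 279, and Atp5l 5715, 5137 and 3129.5 and 1714, 1929 and 2465 (-1.17, adjusted p = 0.0116). Calls of Ndufb7, Atp5d and Atp5g2 were among those lost when a single array was left out, with log2 differences of -0.51 to -0.76. Several of these probe sets carry the suffix _f_at, which marks probes shared by similar sequences, so that signal from related genes or pseudogenes can enter them.

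In tolerizing allografts at day 7, most of these genes had lower values than in isografts, and 0 of 72 passed the test in limma. At unadjusted p under 0.05, 16 were lower (22.2%) and 0 higher, against 6.74% of all probe sets lower. Among all probe sets 1.69% were called in either direction. The median difference was -0.49 against -0.02 for all probe sets, and 66 of 72 genes were negative, against 52.0% of all probe sets. All 3 tolerizing arrays lay below all isografts for 27 genes (37.5%), against 11.6% of all probe sets. Sdha had the lowest difference (log2 difference -1.25, SE 0.40, adjusted p = 0.171), and Uqcrc1 the smallest adjusted p (log2 difference -0.80, SE 0.21, adjusted p = 0.0954). By complex, medians ran from -0.41 in complex IV to -0.59 in complex II. Without isograft array 3, 1 gene was called, Atp5e, the epsilon subunit of F1, as lower, against 0.5% of all probe sets. In the second run the median was -0.70, and in the first, with 1 array a group, -0.13.

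Rejecting hearts had a lower mean than tolerizing hearts of the same day for 67 of 72 genes, against 43.4% of all probe sets. The median difference was -0.81, and that of all probe sets 0.06. None of the 72 passed the test in limma (0 called, and 1.41% of all probe sets in either direction). At unadjusted p under 0.05, 48 genes were lower and 0 higher, against 7.73% of all probe sets lower. Groups did not overlap, with rejecting arrays lower, for 20 genes (27.8%), against 7.76%. Cox7a1 had the lowest difference (log2 difference -3.08, SE 0.74, adjusted p = 0.0599), followed by Cox8b at -1.97 and Uqcr11 at -1.83. Ndufb8 had the smallest adjusted p (log2 difference -1.33, SE 0.31, adjusted p = 0.0551). Without rejecting array 3, 41 genes were called lower and 1 higher, Ndufa1, while calls over all probe sets rose as well, to 4.49% lower and 2.92% higher. With array weights 54 were called lower, against 7.36% of all probe sets, and in the second run alone 9, against 1.04%. The fit with array weights stopped before convergence. The median difference of the 72 genes was -1.11 in the second run and -0.26 in the first.

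Group means at day 7 stood in the order rejecting, tolerizing, isograft for 63 of 72 genes (87.5%), against 24.7% of all probe sets. The comparisons share the isografts or the rejecting hearts, so this order is a description.

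**Figure D5:**
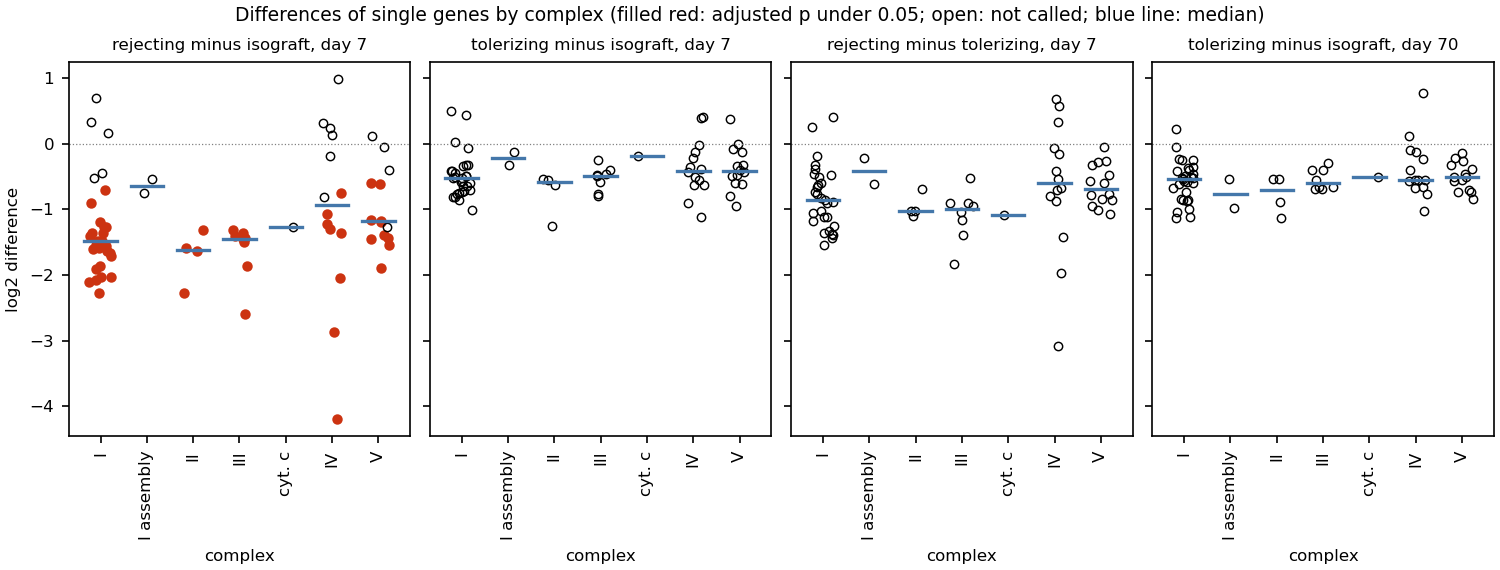
Each point is 1 gene, grouped by complex, with its log2 difference in each of 4 comparisons, and blue lines are medians. Filled points, with adjusted p under 0.05, appear in the first panel only, and Cox7a1 is the lowest point there at -4.20 and in the third panel at -3.08.

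At day 70 most of these genes again had lower values in tolerizing allografts than in isografts, with 0 of 72 genes called in limma and 3.2% of all probe sets called in either direction. At unadjusted p under 0.05, 16 genes were lower and 0 higher, against 8.05% of all probe sets lower. The median difference was -0.55, against -0.09 for all probe sets, and 69 of 72 genes were negative, against 58.0% of all probe sets. All 3 tolerizing arrays were below both isografts for 46 genes (63.9%), against 22.0% of all probe sets. Ndufa3, a complex I accessory subunit, had the lowest difference (log2 difference -1.13, SE 0.30, adjusted p = 0.0614). Its signals were 2448 and 2124 in isografts and 815, 1313 and 1057 in tolerizing allografts. Sdha followed at -1.12, and Cox7a1 differed by -1.02. Tolerizing array 1 was the lowest of its group, at 65.2% of the day 7 isograft mean over the 72 genes, while arrays 2 and 3 stood at 98.2% and 84.4%. The median was -0.64 in the second run and -0.49 in the first.

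Between the days, 0 of 72 genes were called in tolerizing hearts, where 0.0385% of all probe sets were, with a median difference of 0.17 for day 70 minus day 7. None had an unadjusted p under 0.05, against 6.2% of all probe sets. In isografts 0 genes were called, where 0.0% of all probe sets were, and the median was 0.23. Ndufaf4 alone had an unadjusted p under 0.05, against 5.38% of all probe sets, and its value was higher at day 70. The difference between tolerizing hearts and isografts was compared between the days as an interaction, in which 0 of 72 genes and 0.0% of all probe sets were called. The median interaction was -0.02, and 2 genes had an unadjusted p under 0.05, against 3.93% of all probe sets.

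Other mitochondrial genes were read from lists chosen by function. In rejecting hearts against isografts, citric acid cycle genes had 14 of 16 lower and 0 higher, with a median of -1.59, against the 9.18% of all probe sets called lower. The count was 15 without rejecting array 3 (median -1.90). Idh2, the mitochondrial isocitrate dehydrogenase that uses NADP, had the lowest value (log2 difference -3.997, SE 0.40, adjusted p = 5.30e-05), and Idh3a, Ogdh and Fh1 differed by -1.58, -1.66 and -1.84. Fatty acid oxidation genes had 12 of 13 lower, with a median of -1.93 (12 and -2.32 without rejecting array 3). These include Hadh (-2.96), the carnitine acyltransferase Cpt2 (-1.80), the acyl-CoA dehydrogenase Acadm (-2.90) and Etfb (-1.93), which passes electrons on to the chain.

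Lists of genes for mitochondrial upkeep were read in the same comparison, against the same 9.18% (10.5% without rejecting array 3). Assembly factors of the complexes outside the 73 genes had 3 of 13 lower and a median of -0.32 (5 and -0.46 without rejecting array 3). The members that fell were Uqcc1 (-1.35), Sdhaf1 (-0.73) and Lrpprc (-1.79, and -2.42 without rejecting array 3), a protein that binds mitochondrial messenger RNA. Mitochondrial ribosomal proteins had 13 of 60 lower, with a median of -0.45 (25 and -0.72 without rejecting array 3), and Mrps31 had the smallest adjusted p (log2 difference -0.93, SE 0.19, adjusted p = 0.00503). Import and chaperone genes had 2 of 17 lower, Timm23 (-0.78) and Timm8b (-1.01), with a median of -0.23, a share of 11.8% that is near that of all probe sets. With rejecting array 3 left out, 6 were lower (median -0.42). Carriers and energy transfer genes had 2 of 9 lower, with a median of -0.30: the muscle form of the ADP/ATP carrier, Slc25a4 (-1.93), and the sarcomeric mitochondrial creatine kinase, Ckmt2 (-2.76, and -3.82 without rejecting array 3). In the fit that left this array out, 3 of the 9 were lower, with a median of -0.12. Slc25a5, the ADP/ATP carrier of many tissues, differed by 0.29 and was not called. Its probe set, like that of Sdhaf1, has the suffix _f_at, so that signal from related genes can enter it. None of these lists had a gene called higher. Among the tested regulators of such genes, Ppara fell (-1.32), Hif1a rose (1.15), and 8 of 11 were not called, including Gabpa (-0.51), Esrra (-0.64) and Yy1 (-0.18). Hif1a was read from a probe set with the suffix _f_at too. The coactivator Ppargc1a had 24.7, 19.3 and 14.5 in isografts and 2.50, 6.90 and 2.40 in rejecting hearts, all under the floor, so that its called difference of -0.79 is a bound. Without rejecting array 3, 3 regulators were lower, with Gabpa (-0.92) added, and 1 higher (median -0.57).

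In tolerizing hearts at day 7, 1.69% of all probe sets were called in either direction against isografts. Of the fatty acid oxidation genes 5 of 13 were lower, and of the citric acid cycle genes 1 of 16, Idh2 (-2.17). Hadh had the smallest adjusted p (log2 difference -2.17, SE 0.34, adjusted p = 0.00422). At day 70, where 3.2% of all probe sets were called in either direction, 3 of the 13 fatty acid oxidation genes were lower. These were Hadh (-1.55), Cpt2 (-1.06) and Slc25a20 (-1.25), the carnitine carrier.

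Markers of cell types moved beside these genes. In rejecting hearts against isografts, 9.18% of all probe sets were called lower and 8.54% higher (10.5% and 10.3% without rejecting array 3). Of 16 cardiomyocyte markers, 14 were lower in rejecting hearts than in isografts, with a median of -2.04, such as myoglobin Mb (-3.05), Mybpc3 (-1.58), Atp2a2 (-3.06) and Tnni3 (-3.34). Without rejecting array 3, 15 were lower, with a median of -2.83, and Mb, Atp2a2 and Tnni3 differed by -3.85, -3.96 and -4.45. Their summed signal was 44929 to 69648 in day 7 isografts, 8049 to 31661 in rejecting hearts and 32763 to 48482 in day 7 tolerizing hearts. It was 54248 to 63927 in day 70 isografts and 44521 to 61307 in day 70 tolerizing hearts. None of the 16 was called between tolerizing hearts and isografts at day 7 or day 70, against 1.69% and 3.2% of all probe sets in either direction. Of 21 leukocyte markers, 16 were higher in rejecting hearts, with a median of 1.80, such as Itgb2 (3.36), Cd8a (3.96), Itgam (2.83) and Fcer1g (3.29). Isograft signals of Cd8a and Fcer1g were under the floor on 2 of 3 arrays and were set to it, so that these differences are smaller than the signals alone would give. Also 16 were higher without rejecting array 3, with a median of 1.51, and Cd8a differed by 3.32. Their summed signal was 3584 to 3838 in day 7 isografts, 9778 to 12474 in rejecting hearts and 4968 to 7304 in day 7 tolerizing hearts. At day 70 it was 1569 to 2852 in isografts, where Cd8a and Fcer1g were at the floor, and 5150 to 7726 in tolerizing hearts.

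The other markers were read against the same 9.18% of all probe sets lower and 8.54% higher (10.5% and 10.3% without rejecting array 3). Of 9 endothelial markers, 4 were lower in rejecting hearts than in isografts. Of 9 fibroblast markers, 3 were lower and 1 higher, Thy1, which T cells of the mouse also carry. Of 4 smooth muscle markers, 1 was lower. Without rejecting array 3 the counts were 4 endothelial and 3 fibroblast markers lower, with Thy1 not called, and 1 smooth muscle marker lower and 2 higher, Acta2 and Tagln. In rejecting hearts the summed signal of fibroblast markers was 11929 and 8506 on arrays 1 and 2 and 4153 on array 3, and that of smooth muscle markers was 2588, 1345 and 332. As a sign of RNA quality, the 3 prime to 5 prime signal ratio of the beta-actin control was 1.52 to 1.98 in day 7 isografts, 1.26 to 1.61 in rejecting and 1.09 to 1.37 in day 7 tolerizing hearts. Rejecting array 1 lay among the isografts, while the tolerizing hearts of day 7 were all below them. The same ratio of the Gapdh control overlapped between the groups, at 0.818 to 0.945, 0.890 to 0.954 and 0.821 to 0.890. At day 70 the actin ratio was 1.753 to 1.759 in isografts and lower in tolerizing hearts, at 1.24 to 1.69. The Gapdh ratio of day 70 overlapped, at 0.834 to 0.966 in isografts and 0.900 to 1.13 in tolerizing hearts. With the actin ratio as a covariate, 49 of the 72 genes were called lower in rejecting hearts, against 7.57% of all probe sets, and 0 higher. The part of cell composition in the differences was not tested.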

How the data were processed

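The deposited table holds the authors' signal intensity for 12488 probe sets on 14 arrays, on a linear scale. Trimmed means near 100 on every array were read from the values, while no label or header names the software or scaling behind them. No scaling was added, values under the floor of 11 (the 25th percentile) were set to it, and log2 was taken. Of the probe sets, 66 were controls and 10833 had 1 gene (10817 matched to RefSeq by gene ID), 396 several and 1193 none, and only probe sets with 1 gene were named. A further 10 probe sets with matching symbols named several genes and were left out.

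All 5 groups entered 1 fit in limma 3.58.1 under R 4.3.3 (eBayes moderated by intensity, 9 residual and 4.452 prior degrees of freedom), over the 10395 probe sets that exceeded the floor on 3 arrays or more. P-values are two-sided, adjusted by Benjamini-Hochberg over these probe sets, with a threshold of 0.05; the procedure was tested on simulated data. Fell, rose and called refer to this threshold. A log2 difference takes the group named first minus the one it is set against. The number of arrays limits precision.

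Values are given in every array for the 2 lowest and the highest difference per complex in rejecting hearts against isografts. So are those of the isoform pairs, except Cox8a, given as a range. For genes with probe sets of unlike sign, values of the brightest probe set are given in day 7 isografts and rejecting hearts. Of each list, up to 4 genes with the smallest p are named, and further genes were named after their values were seen. The genes, lists and tests were chosen with earlier results of these data known. No label says that replicate numbers pair samples. Deviations of same-numbered arrays correlated at -0.18 to 0.34 (11 of 26 over 0.1, median 0.054), and those of other arrays at -0.30 to 0.19 (7 of 52, median -0.057). All 3 pairs were over 0.1 only between tolerizing hearts of day 7 and day 70 (0.34, 0.25 and 0.27), where the replicate block left 0 genes called. Number 3 coincides with the first run in all groups but the day 70 isografts. Alternatives covered scaling, floor, filter, weights, blocks, runs and left-out arrays.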

Additional observations from a re-analysis of the deposited data

How the results depend on the processing

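The 54 genes lower in rejecting hearts kept that direction under every alternative run, and 28 kept the call under all of them. The count of genes called in that comparison fell to 29 when only rejecting hearts and day 7 isografts entered the fit, and was 43 to 60 with an array left out, where the 60 are 58 lower and 2 higher without rejecting array 3. For rejecting against tolerizing hearts the count of 0 became 1 (Ndufb8) with quantile normalization or with at least 7 arrays above the floor, 2 (Cox7a1 and Ndufb8) with a pseudocount of 16, 1 (Cox7a1) with a block for the run, 9 with arrays of the second run only, 54 with array weights, whose fit stopped before convergence, and 0 to 42 with an array left out. For tolerizing hearts against isografts it became 3 (Ndufa3, Ndufa7 and Ndufa13) with array weights and 0 to 1 with an array left out at day 7, and 2 (Ndufa3 and Ndufa7) with quantile normalization at day 70. With the replicate block, in which number 3 coincides with the first run in every group but the day 70 isografts, the counts were 52 for rejecting hearts against isografts, 1 for tolerizing hearts against isografts at day 7 and 1 at day 70 (Ndufa13 in both), and 2 for rejecting against tolerizing hearts (Cox7a1 and Ndufb8). The cause of these changes was not tested, other than fewer arrays where arrays were left out. The share of all probe sets called moved between fits too. For rejecting against tolerizing hearts, 7.36% were called lower with array weights and 1.04% in the second run alone. No such share was taken with the replicate block, quantile normalization, the pseudocount or the filter of at least 7 arrays. Nor was it for the run block in rejecting against tolerizing hearts, or array weights in tolerizing hearts against isografts. Counts from those fits cannot be told apart from a general shift in calls.

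With the mean of all probe sets of a gene, the isoform pairs differed by -1.49, -1.83 and -1.93. The exact permutation test gave each an adjusted p of 0.0476, against 0.0536 to 0.286 under the other alternatives. The genes of the first 2 pairs, Cox6a2 over Cox6a1 and Cox7a1 over Cox7a2, have 1 probe set each. Their differences were thus the same as with the brightest probe set. Their adjusted p changed only because the p of Cox8b over Cox8a did, in the adjustment over 3 pairs. That pair reflects Cox8b alone, since Cox8a was at the floor. Reversed signs were seen in 6 genes, none of them called. Atp5g1 was 0.012 with a floor at the 50th percentile, 0.018 in the second run, 0.18 with the actin ratio as covariate and -0.27 to 0.18 with an array left out. Cox8c was 0.017 with array weights, 0.056 in the second run, 0.045 with the actin ratio and -0.44 to 0.19 with an array left out. With an array left out, Atp5j2 was -0.16 to 0.52, Cox6b1 -0.039 to 0.45, Cox6b2 -0.26 to 0.59 and Ndufa1 -0.16 to 1.23. Of 149 median differences compared, 3 moved beyond the spread: in the second run (-1.92 and -1.11, for rejecting hearts against isografts and against tolerizing hearts) and without rejecting array 3 (-1.71, against isografts). Dim probe sets near the floor, such as Cox5a and Ndufc2, limit what can be read for those genes.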
